A study of Homo sapiens with 4 samples.

Results

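The miRNA profile of the input lysate of RD cells is described here from its 1 small RNA library. RD is an established human line grown from an embryonal rhabdomyosarcoma, a soft tissue tumour whose cells resemble immature skeletal muscle. The cells had no treatment and were lysed under native conditions, and this library holds the RNA of the lysate before any capture. The series also holds 3 libraries from pull-downs, 2 with probe sets against the circular RNA circHIPK3 and 1 with LacZ probes as control. There is 1 biological replicate, and the pull-downs are not used here. Members are the mature miRNAs with 10 or more reads in the input, 564 of the 2656 listed, ranked by CPM (reads of a miRNA for each 1000000 miRNA reads of the library).

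miRNAs are short RNAs cut from hairpin precursors. Each hairpin can give a mature RNA from its 5′ side (the 5p arm) and another from its 3′ side (the 3p arm), and usually the arm that is loaded into an Argonaute protein persists while the other is degraded. Bases 2 to 8 of the mature RNA, the seed, do most of the pairing with target mRNAs, so miRNAs that share a seed are grouped as a family. In skeletal muscle miR-1, miR-133 and miR-206 are the classic tissue-specific miRNAs, induced by the myogenic transcription factors.

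The results turn on the most abundant families, whose mature sequences are printed here from RefSeq (GRCh38.p14) with the seed in capitals. The RefSeq set used here held a mature sequence for 516 of the 564 members, and these took 93.1% of all reads. A member without one is missing from this set and not necessarily from RefSeq as a whole. The first set is the let-7 family, in order of abundance, in which 9 RNAs share the seed and differ at few other bases.
let-7a-5p: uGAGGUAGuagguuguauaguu
let-7f-5p: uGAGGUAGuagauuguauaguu
let-7i-5p: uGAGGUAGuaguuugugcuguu
let-7b-5p: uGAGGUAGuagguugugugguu
let-7g-5p: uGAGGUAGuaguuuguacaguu
let-7e-5p: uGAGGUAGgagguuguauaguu
let-7d-5p: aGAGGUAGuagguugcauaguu
miR-98-5p: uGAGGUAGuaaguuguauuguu
let-7c-5p: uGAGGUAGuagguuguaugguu

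The second set is the miR-17 seed family, shown for the 6 RNAs encoded by 3 related clusters, which ran from rank 3 to 0 reads. The other 2 RefSeq names with this seed, miR-519d-3p and miR-526b-3p, had 0 reads and are not printed.
miR-93-5p: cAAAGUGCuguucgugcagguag
miR-20a-5p: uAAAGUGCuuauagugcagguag
miR-17-5p: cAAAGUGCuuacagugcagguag
miR-106b-5p: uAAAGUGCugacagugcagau
miR-106a-5p: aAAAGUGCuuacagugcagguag
miR-20b-5p: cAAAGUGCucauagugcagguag

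The third set holds the muscle pair miR-206 and miR-1, which share a seed, the miR-19 pair and miR-335, all among or close to the most abundant.
miR-206: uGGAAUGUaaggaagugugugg
miR-1-3p: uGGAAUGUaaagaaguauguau
miR-19b-3p: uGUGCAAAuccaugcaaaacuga
miR-19a-3p: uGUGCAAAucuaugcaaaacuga
miR-335-5p: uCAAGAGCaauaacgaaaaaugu

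The library held 2987858 miRNA reads. A count of 10 reads equals 3.35 CPM, with a 95% exact Clopper-Pearson interval of 1.60 to 6.16 CPM, and all intervals given here are of this kind and cover counting error only. For a count of 0 the limit is instead set at 3 reads, or 1.00 CPM; the exact interval would reach 1.23 CPM. With 1 library there is no replicate, so no value has an error between samples and no test was made. A read covers a whole miRNA, so CPM needed no correction for length.

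Reads were concentrated in few miRNAs. Rank 1, let-7a-5p, stood 22026-fold above the lowest members, whose 10 reads are the minimum set by the rule. Of all reads 50% came from 13 miRNAs, 90% from 63 and 99% from 204. The 564 members took 99.9% of reads, and the other 582 miRNAs with a read held 1744 reads together. Rare members were many: 262 had fewer than 100 reads and made up 0.314% of reads, while 7 had 100000 or more and made up 35.0%. The median member had 130.5 reads (43.7 CPM). At the threshold, 13 members had 10 reads, among them miR-100-3p, miR-105-5p and miR-1185-2-3p. Just below it, 20 miRNAs had 9 reads, among them miR-1229-3p, miR-1251-3p and miR-127-5p.

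**Figure D1:**
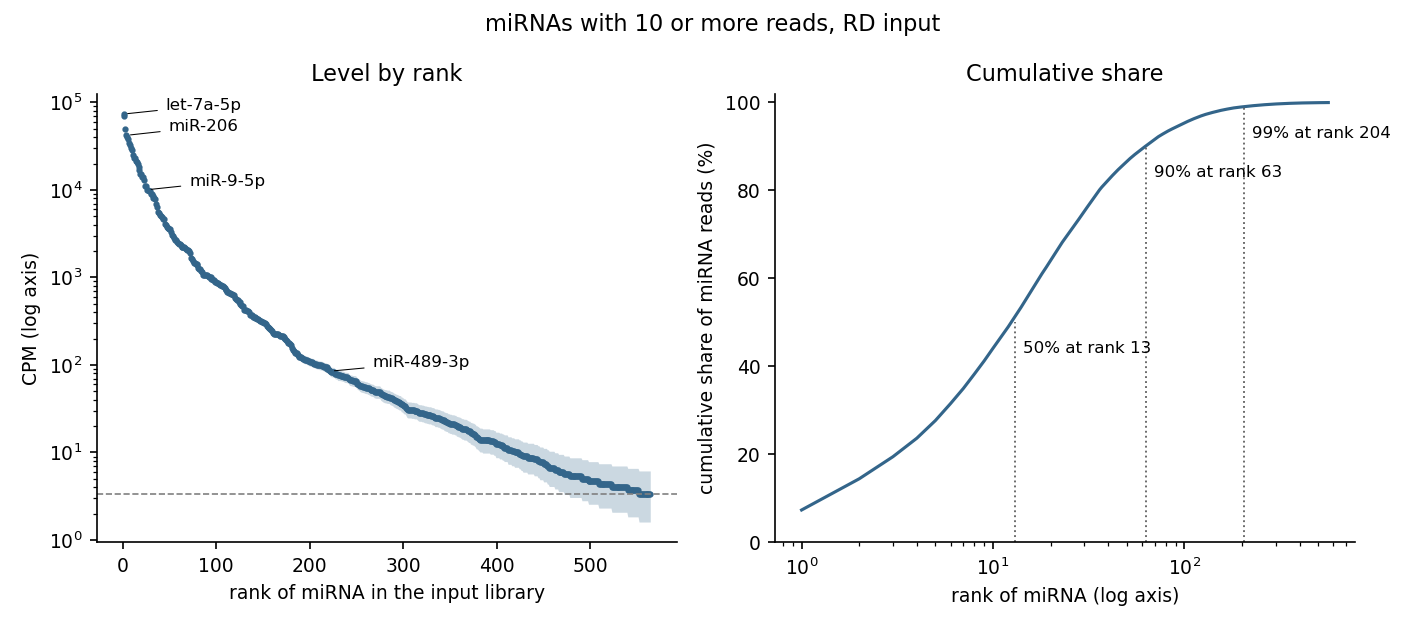
Left, CPM (log axis) of each of the 564 members by rank, with the 95% counting interval as a band and a dashed line at 10 reads (3.35 CPM). Right, the cumulative share of miRNA reads in percent by rank (log axis), which passed 50% at rank 13, 90% at rank 63 and 99% at rank 204.

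The let-7 miRNAs, which repress growth genes such as RAS and HMGA2 and accumulate as cells differentiate, held 716663 reads. That is 24.0% of the library (interval 23.9 to 24.0%). Within it let-7a-5p (73717 CPM) and let-7f-5p (70903 CPM) were nearly level. Their ratio was 1.04 (1.03 to 1.05), and they differ by 1 base, G12A (let-7a base, position from the 5′ end, let-7f base). Below these came let-7i-5p (32999.9 CPM) and let-7b-5p (29849 CPM), and these 4 made up most of the family. The other members lay between 8946 CPM for let-7g-5p and 4017 CPM for let-7c-5p, with let-7e-5p at 7809, let-7d-5p at 6981 and miR-98-5p at 4636 CPM. let-7c-5p, 18.4-fold below let-7a-5p (18.0 to 18.7), also differs from it by 1 base, A19G. Of the other names with this seed in RefSeq, miR-4458 had 1 read and miR-4500 had 0.

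The let-7 genes lie at several loci. let-7a-5p comes from MIRLET7A1 (chromosome 9, 94175957 to 94176036, plus strand), MIRLET7A2 (chromosome 11, 122146522 to 122146593, minus) and MIRLET7A3 (chromosome 22, 46112749 to 46112822, plus). By GENCODE release 29 the first lies in an intron of a long non-coding RNA, the second in an intron of MIR100HG and the third in an exon of MIRLET7BHG. The mature RNA is the same from each, so its reads cannot be given to a locus. In all, 49 members with 35.5% of reads had more than 1 locus in RefSeq.

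Growth-promoting miRNAs of the miR-17-92 group were the next largest. The cluster on chromosome 13 and its paralogs on chromosomes 7 and X encode 13 listed guide strands, RNAs that restrain cell cycle inhibitors and pro-apoptotic genes. Together they took 18.8% of reads (18.7 to 18.8%), but unevenly: 9 of the 13 were members and 3 had 0 reads. miR-93-5p led with 50159 CPM (rank 3), followed by miR-19b-3p with 40101, miR-20a-5p with 34398, miR-19a-3p with 23281 and miR-25-3p with 22912 CPM. miR-92a-3p stood at 9864, miR-18a-5p at 3650 and miR-17-5p, the name-giver, at 3016 CPM.

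The X-linked paralog had almost no reads under its own names. miR-106a-5p had 6 reads, and miR-18b-5p, miR-20b-5p and miR-363-3p had 0 reads each, for which 3 reads give a limit of 1.00 CPM. miR-106a-5p differs from miR-17-5p by 1 base (C1A, miR-17 base first) and was 1502-fold lower (690 to 4094). The X cluster also encodes copies of miR-19b-3p and miR-92a-3p, which are the same in sequence as the products of chromosome 13. No read of these 2 can be given to either cluster.

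The paralog on chromosome 7 lies in an intron of MCM7, a gene of the DNA replication licensing complex, and its 3 hairpins fall within 515 bp (100093560 to 100094074, minus strand). Their products differed widely. miR-93-5p had 149868 reads, miR-25-3p 68459 and miR-106b-5p 1229. miR-93-5p was thus 122-fold above miR-106b-5p (115 to 129) and 2.19-fold above miR-25-3p (2.17 to 2.21). The other arm of the low hairpin, miR-106b-3p, had 1276 reads, so both arms were low beside the neighbouring hairpins.

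Seeds split this group into families. The AAAGUGC seed of miR-93, miR-20a, miR-17 and miR-106b took 8.80% of reads (8.77 to 8.83%), and the GUGCAAA seed of miR-19b and miR-19a 6.34% (6.31 to 6.37%). miR-19b-3p stood 1.72-fold above miR-19a-3p (1.71 to 1.74), from which it differs by C11U (miR-19b base first). The AUUGCAC seed of miR-25, miR-92a, miR-32 and miR-92b took 3.43%. There miR-92b-3p, with 407 reads, was 168-fold below miR-25-3p (153 to 186), and miR-32-5p had 4265 reads.

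Muscle miRNAs were prominent. All 7 of the listed skeletal muscle miRNAs were members, with 6.33% of reads together (6.30 to 6.36%). To set beside this and the later lists and clusters, 21.2% of all listed miRNAs were members, and 310 of the 528 numbered below 500. miR-206, which is specific to skeletal muscle and promotes myoblast differentiation, was rank 4 with 42097 CPM. miR-1-3p, which shares its seed and is abundant in mature skeletal and heart muscle, was rank 22 with 13995 CPM. miR-206 was 3.01-fold higher than miR-1-3p (2.97 to 3.04), and the pair formed the fourth largest seed family, with 5.61% of reads. miR-133a-3p, encoded beside miR-1, had 5012 CPM, and miR-133b, encoded beside miR-206, had 1021 CPM. The muscle-enriched miR-486-5p stood at 1075 CPM. The miRNAs hosted in myosin heavy chain genes were low, with miR-499a-5p at 90.4 CPM and miR-208b-3p at 11.4 CPM. miR-489-3p, known from quiescent satellite cells (the stem cells of muscle), had 254 reads. The hairpin of miR-653, encoded near it, had 2 reads from its 5p arm, which is on the marker list, and 343 from its 3p arm, which is not.

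miR-206 and miR-133b form a cluster on chromosome 6 (52144401 to 52149041, plus strand). miR-206 had 125781 reads there and miR-133b 3052, a ratio of 41.2 (39.8 to 42.7). miR-133a-3p, from other loci, was 4.91-fold above miR-133b (4.72 to 5.10).

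Markers of several other tissues were low, while the neural, endothelial and mesenchymal lists, given below, held high members. The plot of marker miRNAs sets each list beside the muscle list. All 8 pluripotency miRNAs (the miR-302 and miR-371 to miR-373 groups) had 0 reads, with the same limit of 1.00 CPM each. Blood markers summed to 40.8 CPM over 6 miRNAs, of which 2 were members, with miR-451a, the red cell miRNA, at 0 and miR-223-3p, a myeloid miRNA, highest at 30.5 CPM, followed by miR-142-3p with 18 reads. Epithelial markers summed to 195 CPM over 7, of which 5 were members, from 0.669 CPM for miR-203a-3p to 65.6 CPM for miR-141-3p, with miR-200a-3p at 56.2 CPM. The liver miRNA miR-122-5p had 11 reads, the islet miRNA miR-375-3p 41 and the heart miRNA miR-208a-3p 3. The 3 miRNAs of the eye list summed to 7.03 CPM, with 18 reads for miR-184, 3 for miR-204-5p and 0 for miR-211-5p.

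Lists for neural, endothelial and mesenchymal cells held high members. They took 3.12%, 1.43% and 1.37% of reads, against 6.33% for the skeletal muscle list. Members were 3 of 5 neural, 2 of 2 endothelial and 3 of 5 mesenchymal miRNAs. Among 5 neural miRNAs, miR-128-3p had 20064 CPM and miR-9-5p 10059 CPM, whereas the neuron-specific miR-124-3p had 1 read and miR-137-3p had 4. miR-126, hosted in the endothelial gene EGFL7, had 9637 CPM from its 3p arm and 4646 CPM from its 5p arm. miR-199a-5p, of mesenchymal tissues, had 12938 CPM, miR-214-3p 725 CPM and miR-199b-5p 72.3 CPM. The smooth muscle and fibroblast pair was low, with miR-143-3p at 71.6 and miR-145-5p at 5.36 CPM. The 2 miRNAs of the mesenchymal list at 0 reads were miR-199a-3p and miR-199b-3p, taken up with the arms. In a lysate of many cells, few cells with a high level and many with a low level cannot be told apart. The list names give the tissues these miRNAs are known from and do not mean that such cells were in the lysate of this cell line. Why these miRNAs were high was not tested.

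**Figure D2:**
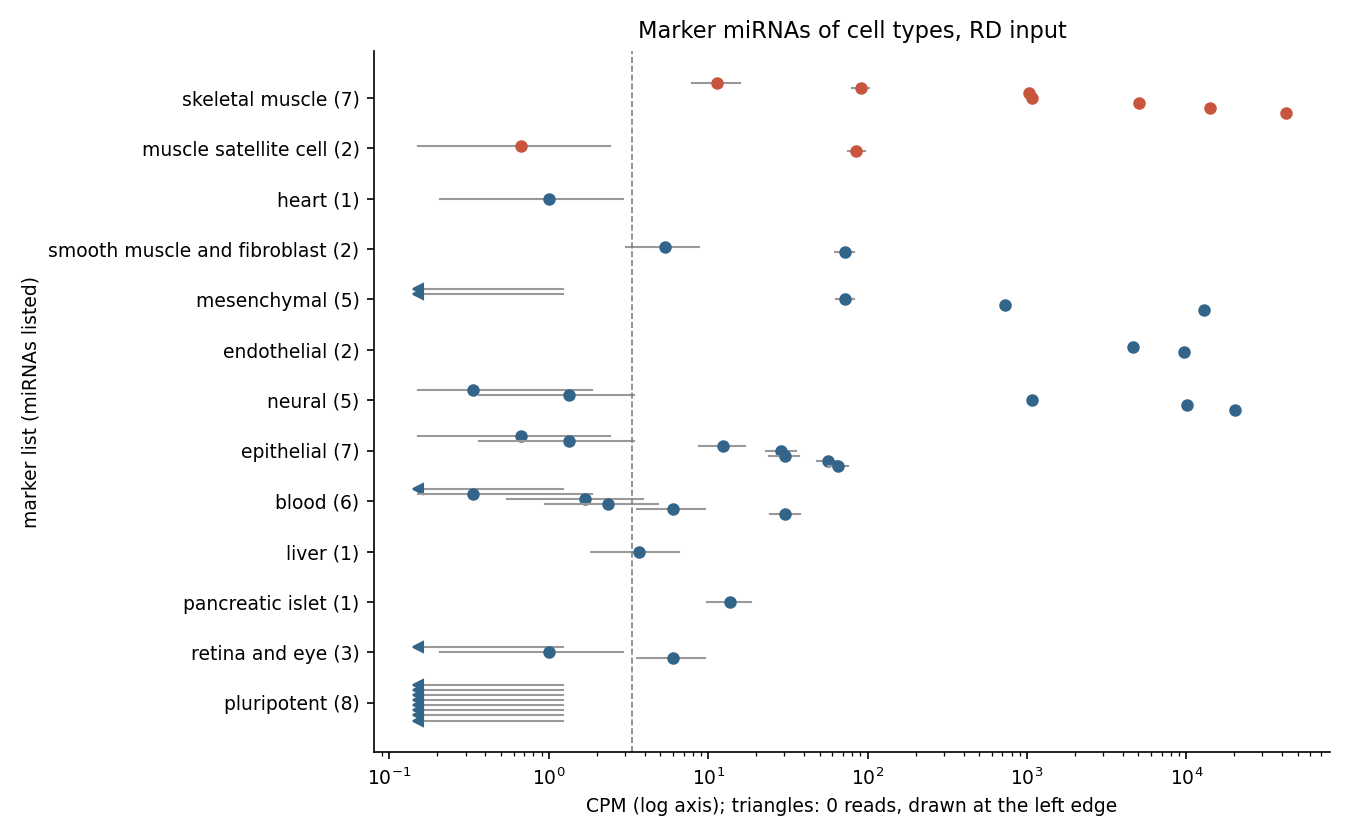
CPM (log axis) of marker miRNAs by list in the input, with 95% exact counting intervals as grey bars, triangles at the left edge for 0 reads and a dashed line at 10 reads. Muscle lists are in red; the skeletal muscle markers run from 11.4 to 42097 CPM, and all 8 pluripotency markers sit at 0 reads.

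Smaller families followed. miR-335-5p, encoded in an intron of the imprinted gene MEST (chromosome 7, 130496111 to 130496204, plus strand), had 38586 CPM (rank 6) and was the only RNA of its seed, with 3.86% of reads. The AGCAGCA seed of miR-15 and miR-16, which restrain cyclins and BCL2, took 2.95%. Of it 85.6% was miR-16-5p (25221 CPM), 11.9-fold above miR-15b-5p (11.6 to 12.3) and 43.1-fold above miR-15a-5p (41.1 to 45.3), and miR-424-5p had 4642 reads. The 2 family members of the miR-497 and miR-195 cluster had 2 and 1 reads. miR-125b-5p (21056 CPM) was 2.59-fold above miR-125a-5p (2.55 to 2.63), with 2.92% for both. miR-26b-5p was 1.72-fold above miR-26a-5p (1.69 to 1.74), with 2.65% for both.

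miR-101-3p, which targets the chromatin repressor EZH2, had 21349 CPM and no family partner. In the GUAAACA seed of miR-30, miR-30e-5p (15382 CPM) was 500-fold above miR-30a-5p, which had 92 reads (ratio interval 407 to 620), and miR-30c-5p had 11011 reads. miR-30b-5p with 5928 and miR-30d-5p with 2285 reads had no mature sequence in the RefSeq set used here and are outside that sum. miR-148b-3p and miR-148a-3p were close, at a ratio of 1.06 (1.04 to 1.07), and miR-152-3p was 124-fold below the first (109 to 143). miR-34a, miR-34b and miR-34c, induced by p53, had 2, 0 and 2 reads. miR-21-5p, raised in many tumours and chosen for mention after its value was seen, was rank 67 with 2184 CPM.

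Most seed families held 1 member. The 516 members with a sequence fell into 439 seed families, of which 388 held 1 member and 51 held 2 or more. Many of these seeds also have only 1 name in RefSeq, such as those of miR-335-5p, miR-532-5p and miR-24-3p. The small family size is thus in part that of the reference. The 6 largest took over 50% of reads and the 12 largest 66.6% (66.5 to 66.6%). The 48 members without a sequence are in no family, among them miR-660-5p with 2.85% of reads and miR-130a-3p (rank 20, 15194 CPM) with 1.52%. The order of families therefore holds only for members with a sequence, and miR-660-5p alone held more than the miR-26 family.

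**Figure D3:**
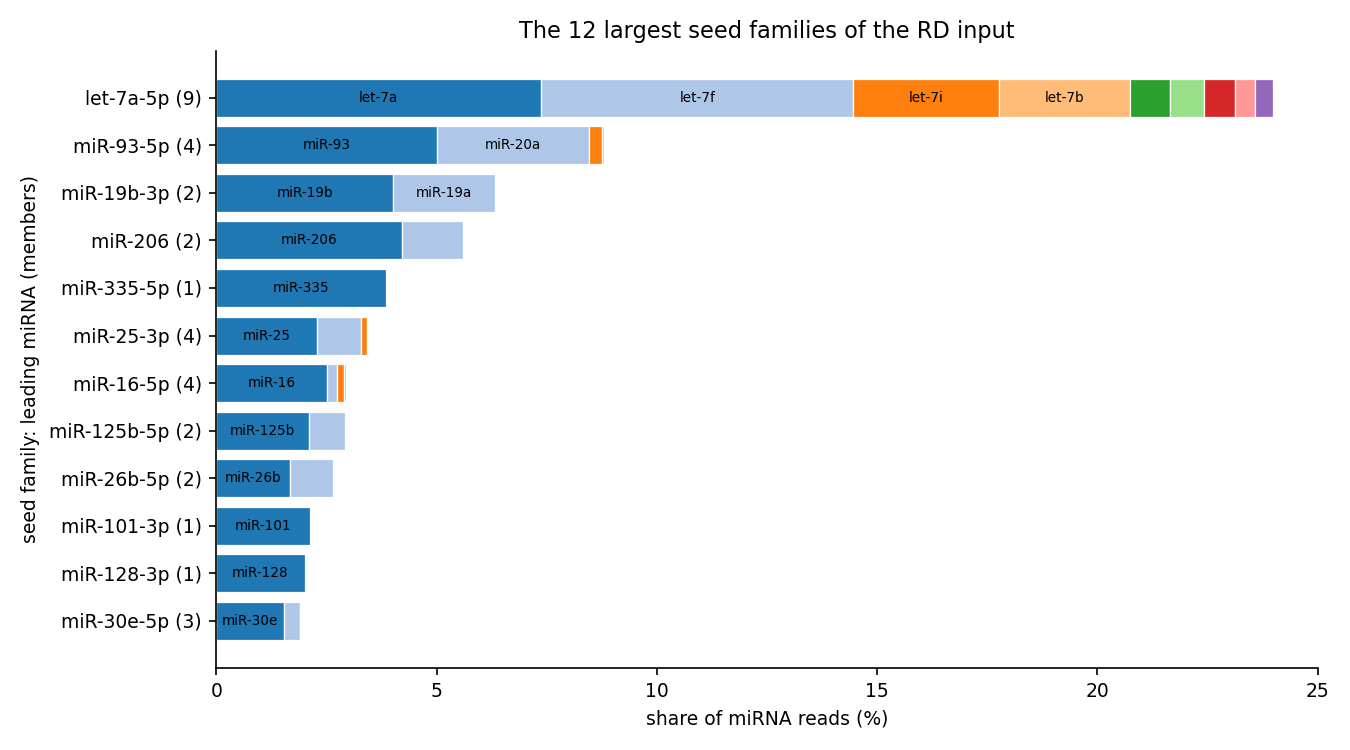
Share of miRNA reads (percent) of the 12 largest seed families among members with a RefSeq sequence, each bar split by member and named by its leading miRNA, with the number of members in brackets. let-7 takes 24.0% over 9 members, and most other families are led by 1 miRNA.

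Hairpins on the same strand at most 10 kb apart were grouped, and the products of several groups were unequal. Whether the hairpins of a group share a transcript was not tested. Reads of a miRNA with several loci were divided evenly between them. The chromosome 13 cluster (91350605 to 91351391, plus strand, in an exon of MIR17HG) held the most, 9.08% of reads. The MCM7 cluster followed with 7.41%, and the let-7a-1, let-7f-1 and let-7d cluster on chromosome 9 with 6.80%. Most reads of this chromosome 9 cluster came from the even division of let-7a-5p and let-7f-5p. Of its leading arms only let-7d-5p, with 20857 reads, is of this locus alone. The division also gave 2.50% of reads to the X-linked paralog, whose own leading arms had 6 or 0 reads. With miRNAs of several loci left out, the MCM7 cluster led. In the chromosome 13 cluster, among RNAs of this locus only, miR-20a-5p was 11.4-fold above miR-17-5p (11.2 to 11.7).

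The fourth cluster, in an intron of CLCN5 on chromosome X (50003148 to 50014683, plus strand), took 5.71% of reads from 8 hairpins. Its leading arms spanned 288-fold (257 to 323). miR-660-5p had 85134 reads (rank 10) and miR-532-5p 55190 (rank 17), while miR-500a-3p had 7635, miR-188-5p 4400, miR-362-5p 3418, miR-502-3p 3177, miR-501-3p 1099 and miR-500b-3p 296. The 2 highest came from the first and the seventh hairpin along the strand.

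Other clusters were tighter. The chromosome 9 cluster of miR-23b, miR-27b and miR-24-1 differed by 1.72-fold between miR-27b-3p and miR-23b-3p (1.70 to 1.75). The chromosome 19 cluster of miR-99b, let-7e and miR-125a in an intron of SPACA6 differed by 1.56-fold between its highest and lowest (1.53 to 1.59), with 15622, 23332 and 24323 reads. At the related locus in MIR100HG on chromosome 11, miR-100-5p had 130 reads and was 484-fold below miR-125b-5p (407 to 579). Chromosome 21 also encodes miR-125b-5p, so its reads cannot be given to this locus and the ratio does not compare products of 1 locus. MIR125B1 also lies more than 10 kb from MIR100, outside its group.

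**Figure D4:**
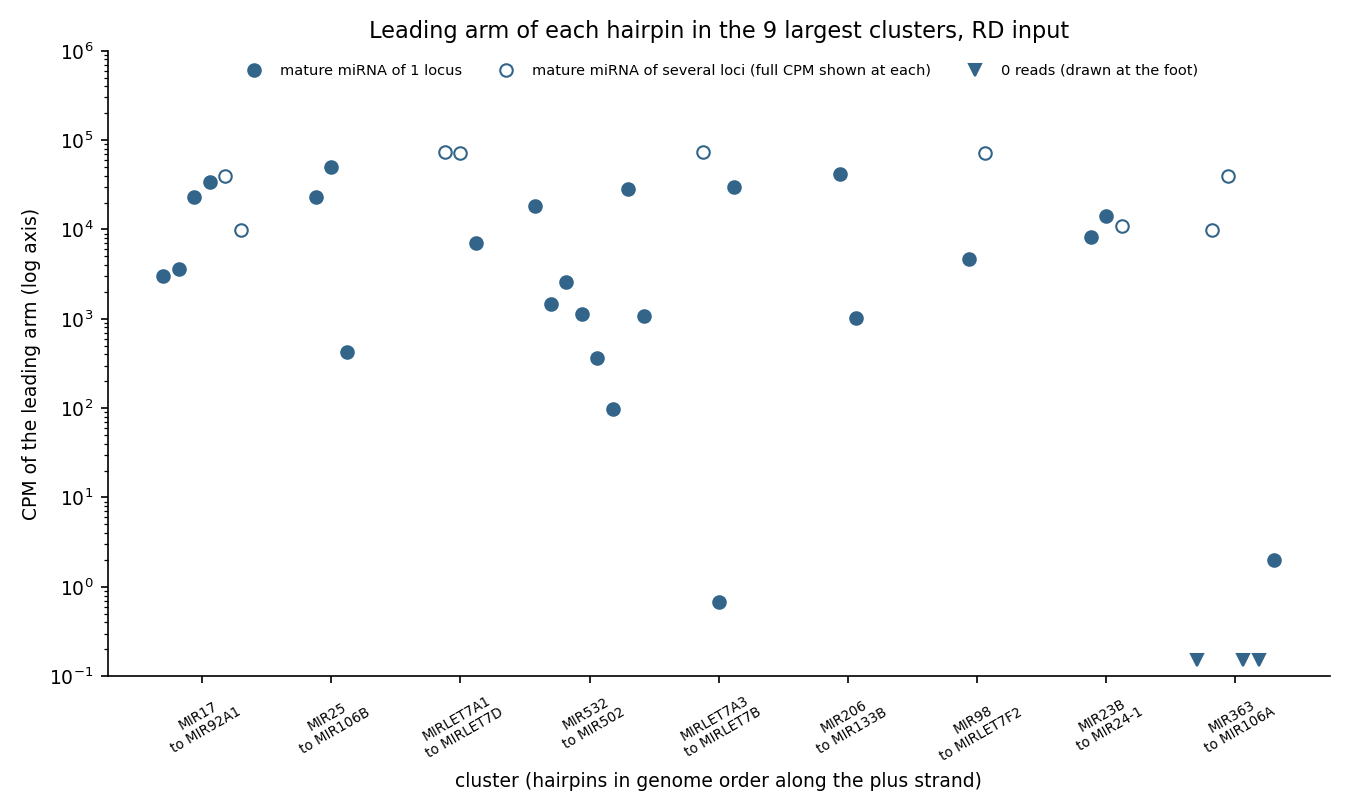
CPM (log axis) of the leading arm of each hairpin in the 9 largest clusters, with hairpins in genome order. Filled points are mature miRNAs of 1 locus, open points those of several loci, shown with their full CPM at each, and triangles 0 reads; the X-linked MIR363 to MIR106A cluster has high open points and its own products at 6 or 0 reads.

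Imprinted and germline-type clusters differed. The 14q32 cluster (chromosome 14, 100852390 to 101066801) had 40 members of 92 mature miRNAs but only 0.131% of reads, led by miR-381-3p with 364 reads. The primate cluster on chromosome 19 with the neighbouring miR-371 to miR-373 (53666679 to 53788773) had no member among 74 and 2 reads in all. Some of its names share a mature sequence with another name, and such zeros are listed values and not absence, as given with the arms. The miR-506 to miR-514 region on chromosome X (147189704 to 147284728), known from testis, had 18 members of 20 and 0.531% of reads, led by miR-514a-3p with 7132 and miR-508-3p with 2642 reads.

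Arm use was strongly one-sided. Of reads from members with a known arm, 67.2% came from 5p arms (67.1 to 67.3%), although 248 members were 5p and 293 were 3p. That share rests on the top of the list, where 8 of the 10 most abundant were 5p: without those 10 it was 50.9%. miR-206 has no arm in its name and no hairpin entry here, and was 1 of 23 members left out. Hairpins that share a mature miRNA were joined, and 204 groups with both arms listed and 100 or more reads were compared. The 5p arm led in 115 and the 3p arm in 89. In 145 (71.1%) the leading arm held 90% or more, and in 75 it held 99% or more. These counts include miR-199a, miR-199b and miR-570, whose other arm is a name with 0 reads that shares its sequence, taken up below. The median was 97.3%.

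Among abundant hairpins led by the 5p arm, let-7a had 99.6% of its reads there, let-7f 99.8% and miR-93 99.8%. miR-20a had 102777 reads on 5p and 1033 on 3p. miR-335 kept more of its other arm, with 115290 reads on 5p and 12179 on 3p, or 90.4% on 5p (90.3 to 90.6%). Led by the 3p arm were miR-19b, miR-19a, miR-25, miR-101 and miR-128, each with under 0.3% of reads on 5p; miR-19a had 44 of 69603.

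Some hairpins kept both arms. Over 1000 reads, the most balanced was miR-106b with 49.1% on 5p (47.1 to 51.0%), and its interval covers equality. For miR-450a, 656 reads on 5p and 725 on 3p also covered it (44.8 to 50.2%). miR-15b led with its 3p arm, 7088 reads against 6307, or 47.1% on 5p (46.2 to 47.9%), and miR-483, from an intron of IGF2, had 44.0% on 5p (43.2 to 44.8%). miR-181a, miR-501, miR-425 and miR-362 lay between 46.0% and 64.3% on 5p. miR-126 is known for both arms and had 32.5% on 5p (32.1 to 33.0%).

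The arm values of miR-199a stand apart. miR-199a-5p had 38657 reads and miR-199a-3p 0. RefSeq gives miR-199a-3p and miR-199b-3p the same sequence, and miR-199b-3p had 0 reads too. In all, 11 sets of 29 names shared a mature sequence, and 28 of these names had 0 reads and the other had 1. Among 2338 names with a sequence of their own, 55.3% had 0 reads. Only 3 of the 11 sets had reads from a partner arm, those of miR-199, miR-365 and miR-570, with 38873, 35 and 265 reads. The sources used here do not say how reads that fit several names were treated. These zeros are therefore given as listed values and not as absence.

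**Figure D5:**
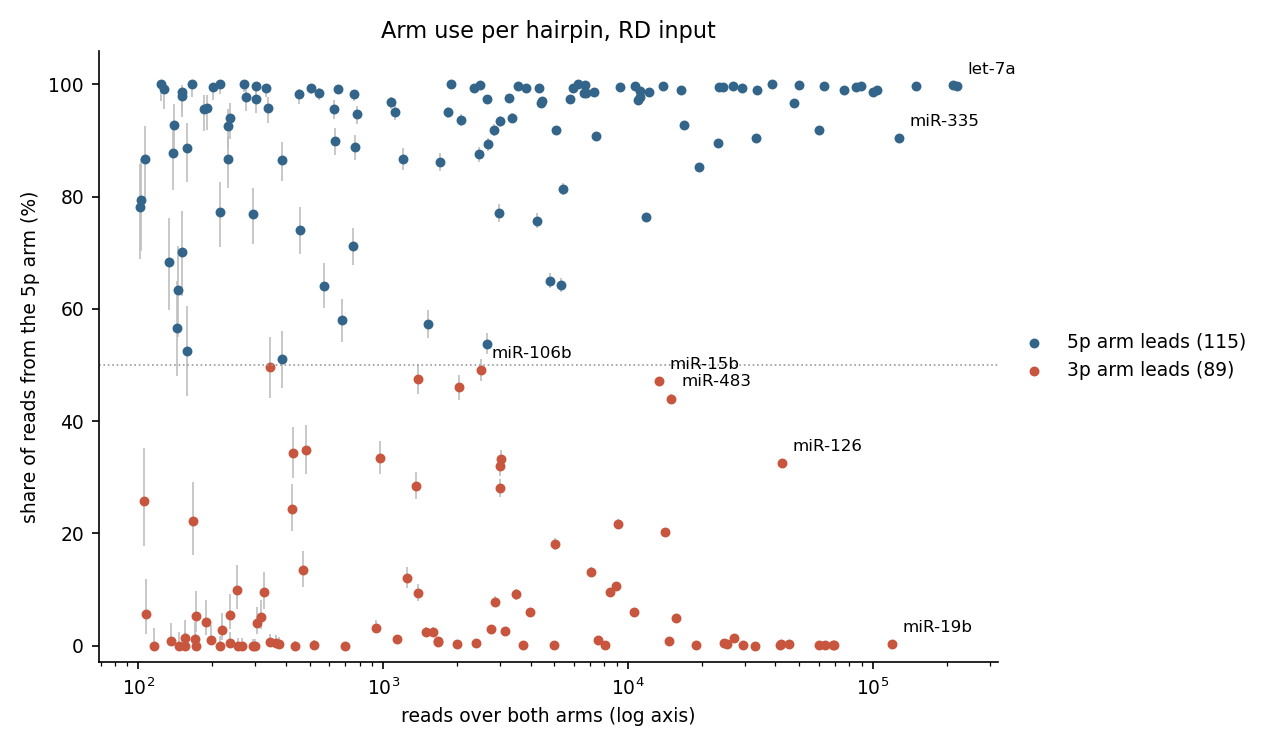
Share of reads from the 5p arm (percent) against reads over both arms (log axis) for the 204 hairpin groups, with 95% exact intervals as grey bars. Points crowd at both ends; miR-106b, miR-15b and miR-483 lie near 50%, and miR-126 at 32.5%.

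Abundant miRNAs shared sequence features. The first base is known to be held by a pocket in Argonaute that prefers U and A. The counts hold no read sequences, so first bases, lengths and GC content are those of each name in RefSeq. Of the reads of members with a sequence, 78.0% fell to names with U first (77.9 to 78.0%). Names with C first took 15.6%, with A 5.38% and with G 1.02%. Counting each member once, 41.9% of 516 began with U, close to the 36.8% of all 2370 mature miRNAs of the RefSeq reference. The share with U was 15 of 18 among ranks 1 to 20, 41 of 71 among ranks 21 to 100, 74 of 188 among ranks 101 to 300 and 86 of 239 among the rest. Of the reads with C first, miR-93-5p had 149868.

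The same held within hairpins. In 175 hairpin groups with both sequences, 101 leading arms (57.7%) and 37 other arms (21.1%) began with U. In 77 only the leading arm did, in 13 only the other arm, in 24 both and in 61 neither. It was so on either side: where 5p led, 62 of 100 leading and 19 of 100 other arms began with U, and where 3p led, 39 of 75 and 18 of 75.

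By RefSeq length, RNAs of 22 nt took 57.4% of reads and were 57.4% of members, against 44.4% of the reference. RNAs of 23 nt took 28.6% of reads and were 17.4% of members, against 14.6% of the reference. The modal length thus had the same share by reads and by members. The GC content was 42.0% weighted by reads, 48.3% over members and 52.4% over the reference. By rank its mean was 41.7% for ranks 1 to 20, 44.1% for 21 to 100, 48.9% for 101 to 300 and 49.6% for the rest. Over single members the relation was weak: across 516 miRNAs of this library, which are not independent, Spearman's rho of GC content and reads was -0.12 and Pearson's r with log10 reads -0.16. Capture in library preparation can depend on base composition, and its part in these values was not tested.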

How the data were processed

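Small RNA from the lysate of RD cells was made into a library with the QIAseq miRNA kit and sequenced on an Illumina NovaSeq, per the labels' protocols. The authors gave whole-number counts for each mature miRNA, and deposited CPM that equal the count times 1000000 over the library total to within 1.46e-11 CPM. The build is GRCh38, per the submitters' processing notes. How reads were aligned, with which annotation and strand setting, how those that fit several names were counted and whether molecular identifiers were used: not given in the sources used here. Without identifiers, PCR copies would be counted and the intervals would be too narrow.

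Only the input column was used. Its 2987858 reads give the shares. Sequences and loci came from RefSeq (GRCh38.p14) by name, and host genes from GENCODE release 29. For clusters, an arm without an entry was placed with the other arm of its name, which put 539 of 564 members at a locus. An arm came from the name or, failing that, the place in the hairpin. A locus without a hairpin entry takes the span of its mature miRNAs.

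No test was made, since the group holds 1 library. Family and arm sums were checked on reads simulated from this library's own shares with known changes. For clusters only the total of placed reads was checked. These checks bear on the arithmetic and not on the results. The text names the 20 most abundant miRNAs, up to 4 of each of the 12 largest seed families, marker list members (the 2 most abundant and those that define a cell type), leading and balanced hairpins, ends of the 8 largest clusters and miRNAs at the threshold. Names outside this rule were chosen after their values were seen. The members and lists were chosen with earlier results of these data known. Alternatives were other read minimums, denominators, family and cluster definitions and subsets. Tables were made in Python 3.11.15 with pandas 2.3.3 and numpy 2.4.6, intervals with scipy 1.17.1, and plots with matplotlib 3.10.9.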

Additional observations from a re-analysis of the deposited data

How the results depend on the processing

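The 21 alternatives were read by whether a count stayed within 1.5 times its value and a share within its counting interval: 10 did and 11 did not. The number of miRNAs, 564, was 1146 at a minimum of 1 read, 423 at 10 CPM and 302 at 100 reads. The let-7 share was 24.2% with all arms grouped by name. The share from 5p arms, 67.2%, was 66.5% without miRNAs of several hairpins, 50.9% without the 10 most abundant, 45.8% with each miRNA counted once, and 64.3% with miRNAs that lack an arm counted as 3p, an alternative chosen after seeing the data. Hairpins with 1 arm at 90% or more numbered 90 of 120 at 1000 reads over both arms, against 145 of 204, 122 of 176 without shared mature miRNAs and 119 at 95% or more. The share starting with U, 78.0%, was 41.9% with each miRNA counted once and 70.1% without the 10 most abundant. The largest cluster took 7.41% with miRNAs of several loci left out, and was then that of MCM7. It stayed at 9.08% with arms without an entry left out, also chosen after seeing the data. The share of the 10 most abundant stayed at 44.1% or 44.2% under its 3 alternatives, which could hardly move it. The deposited CPM are the same counts rescaled, names that share a sequence held 1 read, and members took 99.9% of reads. A minimum of 100 reads could not move the let-7 share either, since its lowest member had 12002 reads. These count among the 10 that kept their value and say little about robustness. Depth limits the rarest members: at 10 reads the interval spans 1.60 to 6.16 CPM. No paired analysis was possible because the input is 1 library and no groups were compared.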

Other observations

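Some mature miRNAs lie opposite each other on the 2 strands of a locus, and these pairs were chosen after their values were seen. RefSeq places listed names opposite each other at 48 loci, which hold 40 distinct pairs of names, and in 11 of these pairs both had 10 or more reads. The most abundant pair was miR-24-3p with 32884 reads and miR-3074-5p with 10663, a ratio of 3.08 (3.02 to 3.15). At chromosome 9 the first spans 95086064 to 95086085 on the plus strand and the second 95086063 to 95086083 on the minus strand, and 20 of the 21 bases of miR-3074-5p are complementary to miR-24-3p. They are printed with seeds in capitals to show this.
miR-24-3p: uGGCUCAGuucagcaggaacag
miR-3074-5p: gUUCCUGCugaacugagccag

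miR-103a-3p had 18931 reads and miR-103b, opposite it over 23 bases at both of its loci, 1958. miR-423-5p had 3123 and miR-3184-3p 646, and miR-423-3p had 1678 and miR-3184-5p 325. miR-214-5p had 843 and miR-3120-3p 14. miR-3130-5p and miR-3130-3p, which overlap each other across the strands, had 15 reads each. The sources used here do not state whether strand was used in counting. Without it, reads of such partners cannot be told apart.

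miRNA numbers were given roughly in order of discovery, and those with late numbers were rarely members. Of 1497 listed with a number of 3000 or above, 82 were members, with 0.601% of reads and a median of 21.5 reads. Of 528 listed below 500, 310 were members, with 91.3% of reads and a median of 283.5. Among the late numbers, miR-3074-5p, described above, held 10663 reads and miR-4521 was second with 2517.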
